A study of Mus musculus with 24 samples.

Results

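The matrix metalloproteinases (Mmp genes), the ADAM and ADAMTS metalloproteinases and their inhibitors, the TIMPs, were followed in the epithelial fraction of mouse lung organoids grown with or without nylon fibers. Members were taken by gene symbol: Mmp, Adam or Adamts followed by digits, Adamts2 left aside, and Timp followed by a digit. The rule found 43 of the 14557 gene symbols in the count table, made up of 15 Mmp, 14 Adam, 11 Adamts and 3 Timp genes. The table gives counts per transcript, and 178 transcripts carry these 43 symbols. Per gene, the transcript with the largest epithelial mean stands for the gene. Counts were high enough to test 40 members, and 3 members (Adam11, Adam32 and Mmp24) did not pass the filter on low counts.

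The organoids were made by mixing 200000 EpCAM-positive primary lung cells of wild-type female C57BL6 mice with 200000 cells of CCL206, an established mouse lung fibroblast line (male, strain ddY), in Matrigel. Wells received no fibers (control), 12000 or 30000 nylon 6,6 fibers of 12 × 31 µm, and were harvested after 7 days. Cells were then split with anti-EpCAM beads, and both fractions were sequenced, giving 24 libraries; the 12 epithelial libraries are described here. Each of the 3 epithelial groups held 4 libraries, from 4 separate isolations of 4 mice, and every mouse gave a library to every group. All wells, controls included, therefore held the fibroblast line and the basement membrane gel, and the epithelial fraction is defined by bead capture.

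Matrix metalloproteinases are zinc enzymes that cut collagens, proteoglycans and other matrix proteins. They are made as inactive proenzymes, either secreted or held on the membrane, and are blocked by TIMPs. ADAM proteases are membrane proteins that shed the outer part of other membrane proteins, among them Notch receptors, cadherins, TNF and EGF-family ligands. ADAMTS proteases are secreted and process procollagens, proteoglycans and microfibril proteins. In the lung these enzymes are known for their part in branching, repair after injury, emphysema and fibrosis. Messenger RNA levels do not measure how much enzyme is active.

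Total transcript counts ran from 21222034 to 28232472 in the controls, from 20103389 to 31119155 at 12000 fibers and from 6767842 to 9234052 at 30000 fibers. Members took 0.359% ± 0.019 (SD, n = 4), 0.374% ± 0.0023 and 0.339% ± 0.017 of the counts of representative transcripts in these groups. The 30000-fiber libraries also had a mitochondrial share of 15.6%, against 6.44% in the controls and 6.08% at 12000 fibers. At 30000 fibers the log2 fold change against control went with transcript length. Pearson r was -0.247 across 13677 genes (genes are no independent replicates), and the median was 0.53 in the shortest of 5 length classes and -0.23 in the longest. At 12000 fibers that correlation was -0.011. Pan-epithelial markers (12 genes, Epcam and Cdh1 among them) summed to 8616 to 10068 CPM in the controls, 8386 to 9316 at 12000 and 4437 to 5177 at 30000 fibers, where 10 of the 12 were lower. Fibroblast markers were present in every epithelial library: 16 markers summed to 8154 to 12702 CPM in the controls, 14753 to 16186 at 12000 and 13574 to 16628 at 30000 fibers, and 15 of 15 tested were higher at 12000 and 14 at 30000 fibers. No fibroblast marker of the 16 was at 0 in any library. These 16 are the ones that the count table holds out of 18 chosen, Thy1 and Meox2 being absent from it. Every transcript in it had at least 60 counts over the 12 epithelial libraries, so a marker near 0 throughout could not be among the 16. Fn1, which epithelial cells also express, made up most of the fibroblast marker sum. Leaving it out, a choice made after its values were seen, gave 561, 1013, 1661 and 1069.8 CPM in the controls of mice 1 to 4, 2083 to 2394 at 12000 and 3334 to 4382 at 30000 fibers. In such bulk samples, fewer cells of a type and less RNA per cell cannot be told apart.

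With 12000 fibers, 17 members were higher and 6 lower than in the controls, among them every stromelysin tested, both gelatinases and Adam28, which fell the most. With 30000 fibers, 20 were higher and 11 lower, and 6 of the 8 catalytic ADAMs were among the lower ones. A member was counted as changed at an adjusted p under 0.05 in edgeR's quasi-likelihood test over all genes. At 12000 fibers 57.5% of the 40 tested members were counted, beside 38.0% of all 13759 genes tested (18.7% higher and 19.3% lower). At 30000 fibers it was 77.5% of the members, beside 65.6% of all genes (32.2% higher and 33.4% lower). The median log2 fold change of the members was 0.40 at 12000 and 0.38 at 30000 fibers, beside 0.00 and -0.03 over all genes. By family, 6 Mmp genes were higher and 2 lower at 12000 fibers and 7 and 3 at 30000. The Adam genes split 3 higher and 4 lower, then 3 and 7. The Adamts genes split 6 and 0, then 7 and 1. Of the TIMPs, 2 and then 3 were higher and none was lower.

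**Figure D1:**
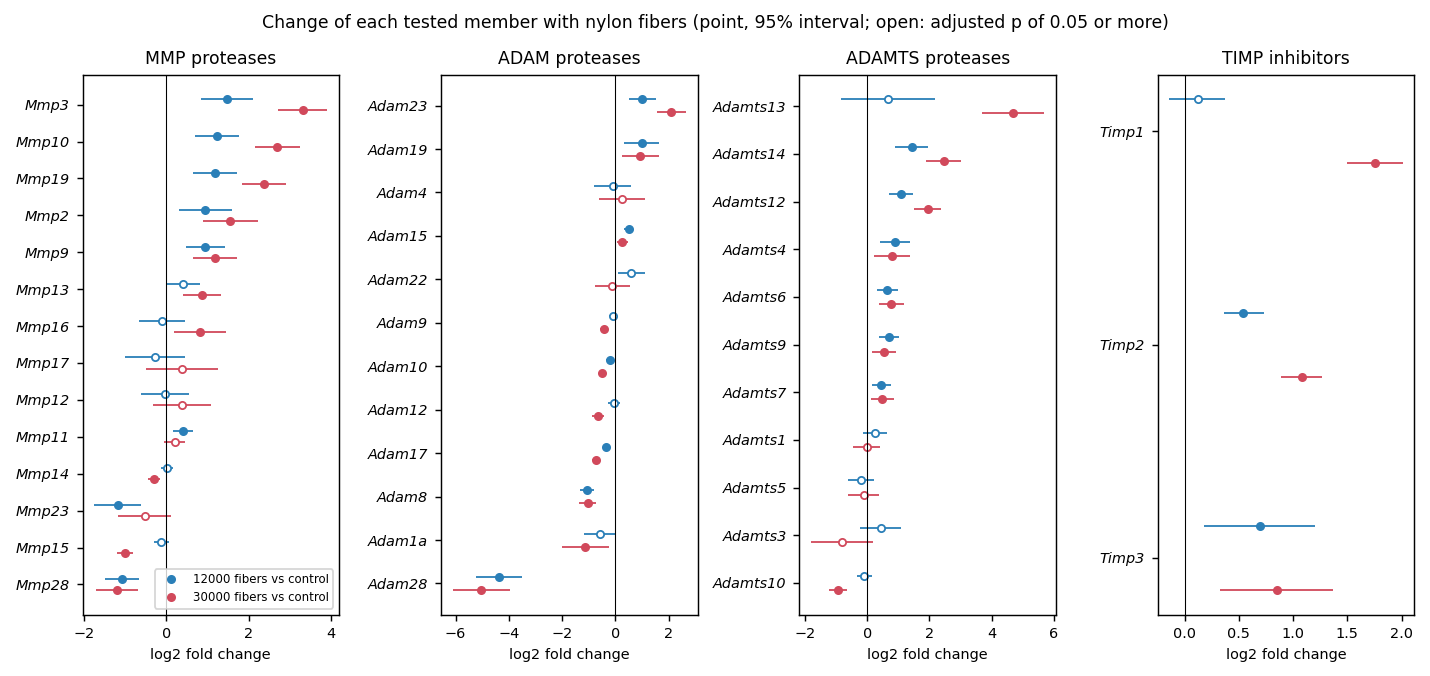
Log2 fold change of each tested member against control at 12000 and 30000 fibers (points, with 95% intervals from edgeR; filled points have an adjusted p under 0.05), by family. Mmp3 (3.32) and Adamts13 (4.70) lie farthest to the right at 30000 fibers and Adam28 (-5.04) farthest to the left. Adamts13 passed the filter on low counts only through its 30000-fiber libraries.

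Levels of different genes were compared as CPM per kb of transcript (CPM, counts per 1e6 counts of the scaled library total). In the controls Mmp14 was the highest member, at 160.0 CPM per kb, followed by Timp2 at 127, Adam9 at 100.4 and Adam28 at 95.2. At 30000 fibers Timp2 led, at 269 CPM per kb, and Adam28 stood at 2.84. The stromelysins Mmp3 and Mmp10 were low in the controls, at 0.609 and 4.43 CPM per kb, and stood at 6.09 and 28.6 with 30000 fibers.

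**Figure D2:**
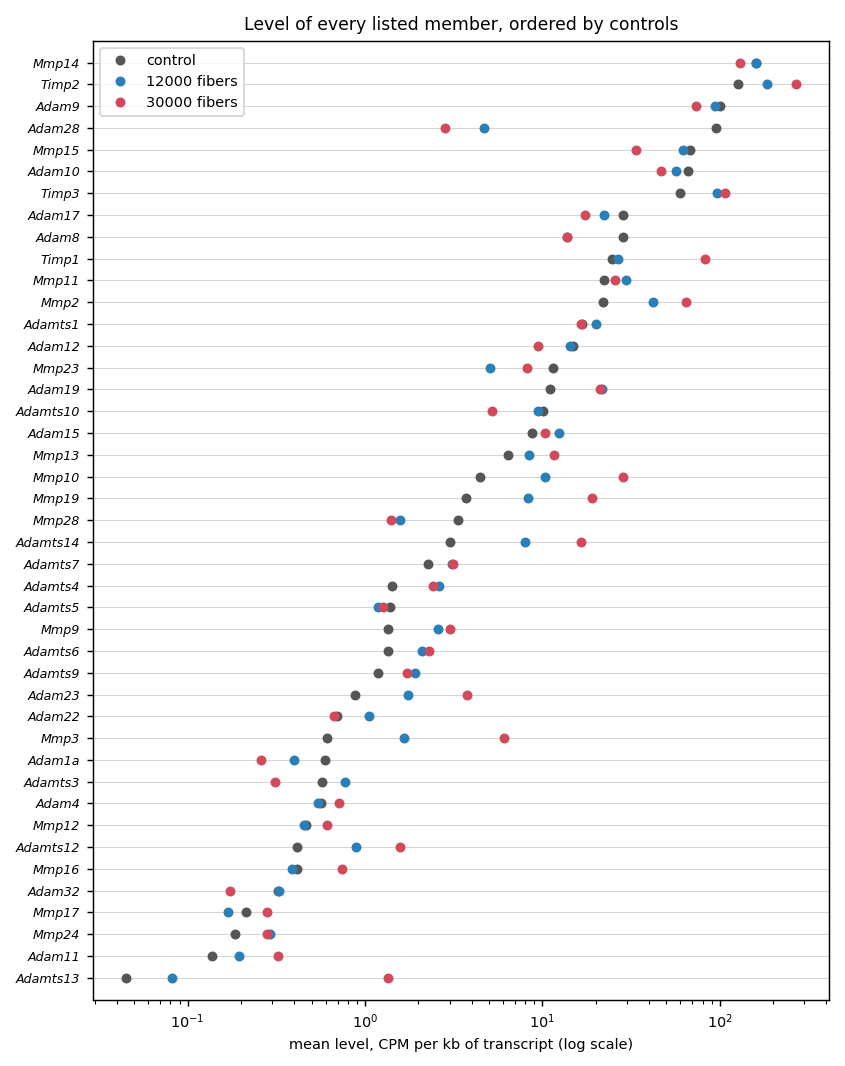
Mean level of all 43 members in CPM per kb of transcript (log axis; points are means of 4 libraries in control, 12000-fiber and 30000-fiber groups), ordered by the control level. Most points of a gene lie close together on this scale, and Adam28 and Adamts13 are spread the widest.

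Summed over a family, the 3 TIMPs came to 211 ± 36.1 CPM per kb (SD, n = 4) in the controls, 308 ± 5.6 at 12000 and 459 ± 51.5 at 30000 fibers, and the ranges of the 3 groups did not overlap. The 14 Adam genes came to 357 ± 52.5, 244 ± 7.38 and 202 ± 3.99 CPM per kb. Adam28 made up most of that difference at 12000 fibers: without it the sums were 261 ± 5.67, 239.9 ± 7.38 and 199 ± 3.57. The 15 Mmp genes summed to 305 ± 11.8, 334 ± 12.0 and 334 ± 13.9 CPM per kb, with Mmp14 and Mmp15 making up much of it. The 11 Adamts genes summed to 38.4 ± 8.28, 50.03 ± 3.89 and 52.2 ± 5.21. These sums are given as descriptions, without a test.

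**Figure D3:**
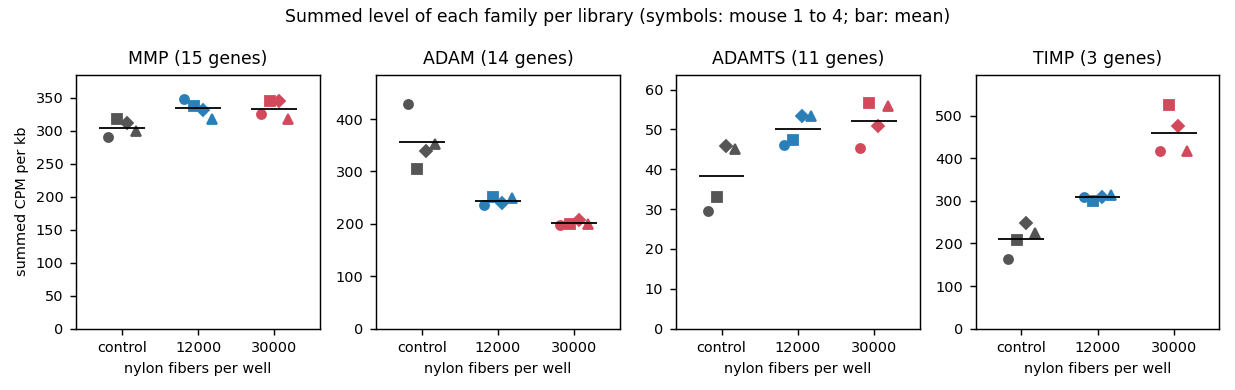
Summed CPM per kb of each family in every epithelial library (symbols for mouse 1 to 4, bar for the mean of 4). The TIMP sums of the 3 groups are separate, and the ADAM sums fall below all controls with fibers. The MMP sums run from 291 to 317.3 in the controls and from 317.9 to 348 with fibers. Every fiber-treated library thus lies above every control, by a narrow margin at the closest.

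**Figure D4:**
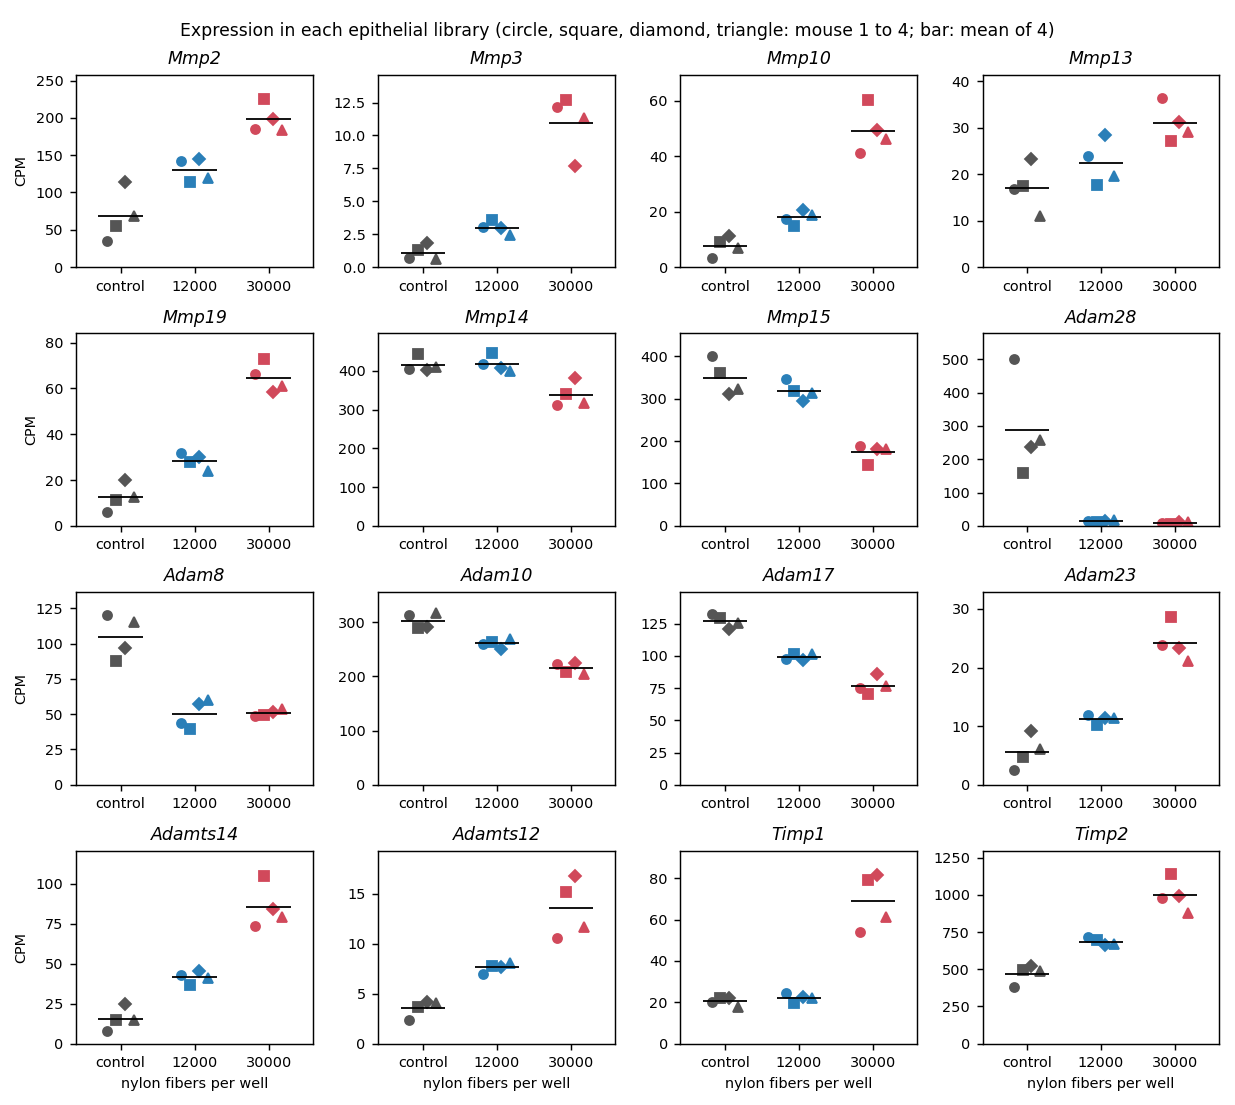
CPM of 16 members in each epithelial library (symbols for mouse 1 to 4, bars for the mean of 4; linear axes that start at 0). Mmp3, Mmp10, Mmp19, Mmp2, Adam23, Adamts14, Adamts12 and Timp2 step up with dose, Adam10 and Adam17 step down, and Adam28 is near the axis in all fiber-treated libraries.

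The stromelysins Mmp3 and Mmp10, secreted enzymes that cut proteoglycans, fibronectin and basement membrane proteins and activate other pro-MMPs, rose at both doses. Along the libraries of mice 1 to 4, Mmp3 stood at 0.695, 1.26, 1.82 and 0.607 CPM in the controls, 3.05, 3.6, 2.93 and 2.41 at 12000 fibers and 12.2, 12.7, 7.65 and 11.4 at 30000 fibers. All 4 libraries were above the controls at 12000 fibers and above both other groups at 30000 fibers, although the controls held 6 to 14 counts of it. Its log2 fold change was 1.47 ± 0.30 (SE, adjusted p 0.000769) at 12000 and 3.32 ± 0.29 (SE, adjusted p 5.18e-09) at 30000 fibers. Mmp10 stood at 3.36, 9.14, 11.2 and 6.78 CPM in the controls, 17.4, 14.9, 20.5 and 18.8 at 12000 fibers and 41.1, 60.3, 49.5 and 46.1 at 30000 fibers, again with no overlap between any of the groups. The log2 fold change of Mmp10 was 1.23 ± 0.25 (SE, adjusted p 0.00173) at 12000 and 2.70 ± 0.25 (SE, adjusted p 6.73e-07) at 30000 fibers, and 1.46 ± 0.23 (SE, adjusted p 0.000122) between the doses. Mmp11 (stromelysin-3), which is activated inside the cell by furin, stood at 38.2, 58.3, 52.1 and 55.1 CPM in the controls, 76.2, 72.2, 61.2 and 60.7 at 12000 fibers and 60.7, 65.3, 55.9 and 53.1 at 30000 fibers. The 12000-fiber libraries all lay above the controls and the 30000-fiber libraries overlapped them, with log2 fold changes of 0.41 ± 0.11 (SE, adjusted p 0.00818) at 12000 and 0.20 ± 0.12 (SE, adjusted p 0.169) at 30000 fibers. Summing all 6 listed transcripts of Mmp11 gave 0.69 (adjusted p 3.01e-05) at 30000 fibers.

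Mmp13 (collagenase-3), an enzyme that cuts fibrillar collagens, stood at 16.8, 17.4, 23.2 and 11 CPM in the controls, 24, 17.6, 28.4 and 19.6 at 12000 fibers and 36.4, 27.2, 31.2 and 29.1 at 30000 fibers. It was above all controls at 30000 fibers and overlapped them at 12000. Log2 fold changes were 0.40 ± 0.19 (SE, adjusted p 0.115) at 12000 and 0.86 ± 0.21 (SE, adjusted p 0.00233) at 30000 fibers. With the mouse as a block the change at 12000 fibers was 0.40 with an adjusted p of 0.0217, and without the control of mouse 3 it was 0.58 with an adjusted p of 0.013. Mmp12 (macrophage metalloelastase) had 1.3 to 4.01 CPM in all 12 libraries, the groups overlapped, and it did not pass at either dose (0.37 ± 0.34 SE, adjusted p 0.343 at 30000 fibers). Its representative transcript is annotated as a retained intron, and the sum of its 5 listed transcripts gave 0.86 (adjusted p 0.015) at 30000 fibers.

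Mmp13, Mmp12, Mmp3 and Mmp10 lie in this order in the MMP gene cluster of chromosome 9, and the 150 bases before their start sites are shown because 3 of these 4 genes were higher at 30000 fibers. They were read from RefSeq (build GRCm38.p6, plus strand), at chr9:7272364-7272513, chr9:7347224-7347373, chr9:7445672-7445821 and chr9:7502192-7502341 in that order. Capitals mark the AP-1 motif, TGACTCA on either strand (TGAGTCA on the other), a sequence known to bind Fos and Jun dimers in promoters of collagenase and stromelysin genes.
Mmp13: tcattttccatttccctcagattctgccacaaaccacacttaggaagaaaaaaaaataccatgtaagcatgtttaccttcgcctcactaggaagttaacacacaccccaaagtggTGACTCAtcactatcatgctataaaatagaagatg
Mmp12: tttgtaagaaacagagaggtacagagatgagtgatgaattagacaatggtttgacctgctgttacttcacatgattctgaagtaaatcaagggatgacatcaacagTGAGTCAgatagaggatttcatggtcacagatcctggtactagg
Mmp3: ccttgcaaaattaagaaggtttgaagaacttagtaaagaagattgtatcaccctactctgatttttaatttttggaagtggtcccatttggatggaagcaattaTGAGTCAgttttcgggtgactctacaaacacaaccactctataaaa
Mmp10: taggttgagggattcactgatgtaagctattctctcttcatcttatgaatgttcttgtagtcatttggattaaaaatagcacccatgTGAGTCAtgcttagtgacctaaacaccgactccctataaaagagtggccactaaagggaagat

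Counted back from the start site, with -1 as the base before it, the motif begins at position -35 in Mmp13, -44 in Mmp12, -46 in Mmp3 and -63 in Mmp10. Among the 27 members with a promoter in the RefSeq table, 5 (18.5%) held this motif in the 250 bases before the start site: these 4 and Adam19. It was found in the same 250 bases of 1466 of the 32851 promoters in that table (4.46%). TATAAA, on either strand, was found in 4 of the 27 (14.8%) and in 12.4% of all promoters. A match of letters does not show binding, and the part of AP-1 in the changes of these genes was not tested. Mmp12, which carries the motif, passed at neither dose with its representative transcript, and passed at 30000 fibers with its transcripts summed (0.86, adjusted p 0.015). Of the 6 AP-1 subunit genes tested, Fosl1 was higher and Fos and Jun lower at 12000 fibers. At 30000 fibers Fosl1 was higher and 4 were lower (Fos, Fosl2, Jun and Junb). Fosl1, named after its values were seen, had 26.9 ± 2.68 CPM (SD, n = 4) in the controls, 41.4 ± 3.73 at 12000 and 124 ± 26.3 at 30000 fibers.

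Both gelatinases, which degrade denatured collagen and collagen IV, rose at both doses. Mmp2 (gelatinase A), a product typical of stromal cells, stood at 34.3, 55.4, 114 and 67.9 CPM in the controls, 142, 114, 144 and 119.6 at 12000 fibers and 184, 225, 199 and 183 at 30000 fibers. The 3 groups did not overlap, and mouse 3 was the highest and mouse 1 the lowest of the controls. Log2 fold changes of Mmp2 were 0.95 ± 0.29 (SE, adjusted p 0.0275) at 12000 and 1.55 ± 0.30 (SE, adjusted p 0.00109) at 30000 fibers. Mmp9 (gelatinase B) stood at 3.36, 3.31, 7.17 and 3.34 CPM in the controls, 7.71, 6.13, 9.48 and 9.24 at 12000 fibers and 10.2, 10.2, 10.6 and 7.35 at 30000 fibers. The control of mouse 3 lay inside the range of the 12000-fiber group and the other controls lay below it. Its log2 fold changes were 0.95 ± 0.23 (SE, adjusted p 0.00263) at 12000 and 1.19 ± 0.26 (SE, adjusted p 0.000501) at 30000 fibers. The 12000-fiber call of Mmp2 was lost without the control of mouse 2 (0.86, adjusted p 0.0704), without that of mouse 4 (adjusted p 0.0607), and without the 12000-fiber library of mouse 1 (0.066) or mouse 3 (0.062).

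Of the other secreted MMPs, Mmp19, which cuts basement membrane proteins, rose at both doses, and Mmp28 (epilysin), an enzyme of epithelial cells, fell. Mmp19 stood at 6.25, 11.5, 20.2 and 12.6 CPM in the controls, 31.6, 27.8, 29.8 and 23.9 at 12000 fibers and 66.2, 73, 58.6 and 61.1 at 30000 fibers. Each group lay wholly above the one before it. Log2 fold changes of Mmp19 were 1.19 ± 0.24 (SE, adjusted p 0.0025) at 12000 and 2.37 ± 0.25 (SE, adjusted p 4.86e-06) at 30000 fibers; 23.2% of its transcript overlaps exons of Tmem198b on the other strand, and whether counting used strand is not stated. Mmp28 stood at 13.8, 10.2, 10.4 and 11.6 CPM in the controls, 5.29, 4.66, 5.72 and 5.89 at 12000 fibers and 1.96, 6.35, 7.65 and 3.34 at 30000 fibers, below all controls at both doses, with a wider spread at 30000 fibers. Log2 fold changes of Mmp28 were -1.09 ± 0.20 (SE, adjusted p 0.000198) at 12000 and -1.21 ± 0.25 (SE, adjusted p 0.000247) at 30000 fibers. Mmp23, a membrane-anchored MMP without the hemopexin domain of most others, stood at 17.8, 17.1, 10.6 and 20.1 CPM in the controls, 6.1, 8.13, 6.97 and 8.04 at 12000 fibers and 18.4, 5.29, 7.65 and 15.4 at 30000 fibers. At 12000 fibers it was below all controls, and at 30000 fibers 2 libraries were low and 2 were in the control range; log2 fold changes were -1.19 ± 0.27 (SE, adjusted p 0.00314) at 12000 and -0.53 ± 0.30 (SE, adjusted p 0.136) at 30000 fibers. Without the 30000-fiber library of mouse 1 the latter was -0.81 (adjusted p 0.0283), without the control of mouse 3 it was -0.68 (0.03), and with the length trend removed it was -0.90 (0.0167).

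Membrane-type MMPs act at the cell surface. None of the 4 tested passed at 12000 fibers, and at 30000 fibers Mmp14 and Mmp15 were lower and Mmp16 was higher. Mmp14 (MT1-MMP), a collagenase that also activates pro-MMP2, stood at 406, 443, 402 and 411 CPM in the controls, 419, 445, 408 and 400.3 at 12000 fibers and 313, 342, 381 and 316 at 30000 fibers. The first 2 groups overlapped, and the 30000-fiber libraries all lay below them. Its log2 fold changes were 0.01 ± 0.07 (SE, adjusted p 0.938) at 12000 and -0.30 ± 0.07 (SE, adjusted p 0.000895) at 30000 fibers. Mmp15 (MT2-MMP) stood at 399.9, 359.7, 312 and 322 CPM in the controls, 346, 318, 294 and 314 at 12000 fibers and 188, 142, 181 and 181 at 30000 fibers. At 30000 fibers every library was below every control, and the log2 fold change was -1.01 ± 0.09 (SE, adjusted p 1.45e-08), against -0.13 ± 0.09 (SE, adjusted p 0.259) at 12000 fibers. Mmp16 (MT3-MMP) was a low transcript, with a mean of 2.06 CPM in the controls, 1.95 at 12000 and 3.7 at 30000 fibers, and a log2 fold change of 0.81 ± 0.30 (SE, adjusted p 0.0223) at 30000 fibers. That call was lost without the 30000-fiber library of mouse 2 (0.64, adjusted p 0.104) or the control of mouse 1 (0.67, 0.0567). Mmp17 (MT4-MMP), held by a lipid anchor, did not pass at either dose (0.38 ± 0.42 SE, adjusted p 0.44 at 30000 fibers).

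Of the 8 ADAMs with a catalytic site that were tested, 2 rose and 4 fell at 12000 fibers, and 2 rose and 6 fell at 30000. Adam28 (GRCm38 chr14:68606027-68655842, minus strand, 23 exons), a membrane protease first described in lymphocytes, fell the most. It stood at 500.4, 158, 236 and 259 CPM in the controls, 13.3, 11.6, 14.5 and 17 at 12000 fibers and 8.62, 4.23, 11.2 and 10.4 at 30000 fibers. Every fiber-treated library was far below every control, while the controls themselves differed widely, with mouse 1 the highest and mouse 2 the lowest. Log2 fold changes were -4.36 ± 0.38 (SE, adjusted p 1.57e-05) at 12000 and -5.04 ± 0.47 (SE, adjusted p 6.35e-06) at 30000 fibers, or 20.5 and 32.9 times lower. The 30000-fiber libraries were below all 12000-fiber libraries, with a change of -0.69 ± 0.62 (SE, adjusted p 0.372) in the fit of all 12 libraries and -0.68 (adjusted p 0.00586) in a fit of these 2 groups. Airway markers (10 genes of basal, club, goblet and ciliated cells) were also lower in sum. They summed to 1154 to 2268 CPM in the controls, 129.5 to 186 at 12000 and 261 to 334 at 30000 fibers, and 9 of 10 fell at each dose. The exception was the club cell gene Scgb1a1, with a mean of 11.5 CPM in the controls, 19.9 at 12000 and 209.9 at 30000 fibers. Its log2 fold change at 30000 fibers was 4.15 ± 0.30 (SE, adjusted p 7.75e-07), and it made up most of the mean sum of 293.5 CPM there. Muc5b and Scgb3a2, markers of secretory cells, were at 0 in some fiber-treated libraries. The 6 neutrophil and lymphocyte markers chosen were not analysed here. The part of cell composition in the fall of Adam28 was not tested.

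Adam8, a sheddase best known from leukocytes and inflamed airways, stood at 119.9, 87.3, 96.7 and 115 CPM in the controls, 44, 39.2, 57.5 and 60.3 at 12000 fibers and 48.6, 49, 51.5 and 53.8 at 30000 fibers. All fiber-treated libraries were below all controls and both doses overlapped, with log2 fold changes of -1.07 ± 0.13 (SE, adjusted p 1.77e-05) at 12000 and -1.04 ± 0.14 (SE, adjusted p 1.5e-05) at 30000 fibers. Its representative transcript is annotated as a retained intron, and the sum of its 8 listed transcripts changed by -1.08 and -1.01. Adam10, the main sheddase of Notch receptors and E-cadherin, stood at 314, 289, 292 and 318 CPM in the controls, 259.9, 264, 251 and 269 at 12000 fibers and 224, 208, 225 and 204 at 30000 fibers. Adam17 (TACE), the sheddase of TNF and of several EGF-family ligands, stood at 133, 129, 121 and 125 CPM in the controls, 98, 101, 97.2 and 101 at 12000 fibers and 74.8, 70.5, 85.7 and 76.5 at 30000 fibers. For both genes the groups stepped down with dose without overlap. Adam10 changed by -0.21 ± 0.06 (SE, adjusted p 0.0073) at 12000 and -0.49 ± 0.06 (SE, adjusted p 7.51e-07) at 30000 fibers. Adam17 changed by -0.36 ± 0.06 (SE, adjusted p 0.000127) at 12000 and -0.72 ± 0.07 (SE, adjusted p 1.33e-08) at 30000 fibers. These falls were small beside that of Adam28, at 0.71 and 0.606 of the control level with 30000 fibers. Between the doses Adam10 changed by -0.28 ± 0.06 (SE, adjusted p 0.0007) and Adam17 by -0.37 ± 0.07 (SE, adjusted p 0.000124). These steps were smaller with the length trend removed, at -0.15 (adjusted p 0.0405) for Adam10 and -0.24 (adjusted p 0.00483) for Adam17.

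Adam9 and Adam12 are sheddases with a broad set of reported substrates. Adam9 stood at 419, 416, 388 and 401 CPM in the controls, 364, 413, 369 and 377 at 12000 fibers and 295, 295, 306 and 301 at 30000 fibers. Adam12, which is typical of mesenchymal cells, stood at 106, 109.5, 130.4 and 111 CPM in the controls, 105, 103, 121 and 112 at 12000 fibers and 52.9, 71.3, 84.2 and 80.8 at 30000 fibers. In both genes the control and 12000-fiber libraries overlapped and the 30000-fiber libraries lay lower. Log2 fold changes of Adam9 were -0.09 ± 0.06 (SE, adjusted p 0.235) at 12000 and -0.44 ± 0.06 (SE, adjusted p 2.79e-06) at 30000 fibers. For Adam12 they were -0.05 ± 0.10 (SE, adjusted p 0.716) at 12000 and -0.65 ± 0.11 (SE, adjusted p 5.68e-05) at 30000 fibers. Adam19 (meltrin beta), a sheddase of neuregulin, stood at 34.6, 54.6, 115 and 76.5 CPM in the controls, 132, 156, 121 and 146 at 12000 fibers and 135, 150.3, 122 and 130.3 at 30000 fibers. All fiber-treated libraries exceeded the controls, which spread from mouse 1 up to mouse 3, and the ranges of both doses overlapped. Its log2 fold changes were 0.99 ± 0.29 (SE, adjusted p 0.0222) at 12000 and 0.94 ± 0.31 (SE, adjusted p 0.0201) at 30000 fibers. Without a library of mouse 2 the calls were lost: leaving out its control gave adjusted p of 0.0595 and 0.0535, and leaving out the fiber library of that mouse gave 0.0543 and 0.0514.

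Adam15 (metargidin), which binds integrins, stood at 31.8, 32.9, 38.7 and 33.9 CPM in the controls, 51.9, 49.4, 48.8 and 43.5 at 12000 fibers and 36.8, 45.5, 43.9 and 36.8 at 30000 fibers. It was the member that was higher at both doses and lower at 30000 than at 12000 fibers, and the 30000-fiber range overlapped both others. Log2 fold changes were 0.50 ± 0.09 (SE, adjusted p 0.000129) at 12000 and 0.25 ± 0.10 (SE, adjusted p 0.0287) at 30000 fibers, and -0.25 ± 0.10 (SE, adjusted p 0.0341) between the doses. The call at 30000 fibers was lost without the control of mouse 1, 2 or 4 (adjusted p 0.0673, 0.063 and 0.0529) or the 30000-fiber library of mouse 2 or 3 (0.107 and 0.0985). The call between the doses was lost in 5 of 8 such fits (adjusted p up to 0.114, without the 30000-fiber library of mouse 4) and with the length trend removed (-0.14, adjusted p 0.219). It was also lost with all listed transcripts summed (-0.14, adjusted p 0.193). The representative transcript of Adam15 is annotated as a target of nonsense-mediated decay. Among ADAMs without a catalytic site, which act as adhesion and receptor proteins mainly in neurons, Adam23 stood at 2.43, 4.77, 9.25 and 6.17 CPM in the controls, 11.9, 10.3, 11.4 and 11.4 at 12000 fibers and 23.9, 28.6, 23.3 and 21.1 at 30000 fibers. The groups did not overlap, and Adam23 rose by 1.01 ± 0.24 (SE, adjusted p 0.00382) at 12000 and 2.11 ± 0.25 (SE, adjusted p 2.25e-06) at 30000 fibers. Adam22 did not pass (0.60 ± 0.24 SE, adjusted p 0.0561 at 12000 fibers). It did so without the control of mouse 3 (0.77, adjusted p 0.016) and in the fit without the 30000-fiber libraries (0.61, adjusted p 0.0297). The germ-line genes Adam1a and Adam4 reached at most 2.74 CPM in any library. Adam1a was lower at 30000 fibers (-1.13 ± 0.43 SE, adjusted p 0.0252), a call lost without the 30000-fiber library of mouse 1, 2 or 3 (adjusted p 0.0815, 0.0954 and 0.0624). In the fit without the 12000-fiber libraries Adam1a did not pass the filter on low counts.

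Among the ADAMTS genes, the procollagen N-proteinase gene Adamts14, whose product trims fibrillar procollagens, had one of the steepest dose steps. It stood at 7.99, 14.7, 24.9 and 15 CPM in the controls, 42.7, 36.6, 45.7 and 41.1 at 12000 fibers and 73.7, 105, 84.2 and 79.2 at 30000 fibers. Each group lay above the one before, and the controls ran from mouse 1 at the bottom to mouse 3 at the top. Adamts14 rose by 1.43 ± 0.25 (SE, adjusted p 0.001) at 12000 and 2.47 ± 0.25 (SE, adjusted p 6.47e-06) at 30000 fibers. Adamts3, a related enzyme that also processes VEGF-C, was low (0.392 to 4.15 CPM over all libraries) and did not pass against control (0.43 ± 0.31 SE, adjusted p 0.304 at 12000 fibers; -0.81 ± 0.48 SE, adjusted p 0.146 at 30000).

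Adamts12, which cuts cartilage oligomeric matrix protein, stood at 2.31, 3.7, 4.17 and 4.05 CPM in the controls, 6.99, 7.73, 7.67 and 8.04 at 12000 fibers and 10.6, 15.2, 16.8 and 11.7 at 30000 fibers. No groups overlapped, and the log2 fold changes were 1.09 ± 0.19 (SE, adjusted p 0.000146) at 12000 and 1.94 ± 0.20 (SE, adjusted p 6.57e-08) at 30000 fibers. Adamts7, its closest relative, stood at 10.3, 12.8, 16.6 and 9.11 CPM in the controls, 17.3, 14.3, 17.4 and 17.3 at 12000 fibers and 13.7, 16.6, 18.6 and 18.7 at 30000 fibers, with overlap between all groups. Its changes of 0.45 ± 0.15 (SE, adjusted p 0.022) and 0.49 ± 0.17 (SE, adjusted p 0.0187) were lost, at 12000 fibers, without the control of mouse 1 or 4 (adjusted p 0.0567 and 0.0894) or the fiber library of mouse 1, 3 or 4 (up to 0.0627). At 30000 fibers they were lost without the control of mouse 4 (0.0632) or the fiber library of mouse 3 or 4 (0.0649 and 0.0602). Adamts6 and Adamts10 act on fibrillin microfibrils, and moved in opposite directions at 30000 fibers. Adamts6 stood at 7.87, 9.14, 13.9 and 10.5 CPM in the controls, 16.7, 13.7, 19.4 and 15 at 12000 fibers and 14.1, 18.7, 15.3 and 22.4 at 30000 fibers. Adamts10 stood at 34.3, 37.8, 49 and 44.3 CPM in the controls, 38, 41.6, 39.2 and 36.7 at 12000 fibers and 21.2, 26.8, 15.9 and 22.4 at 30000 fibers. Adamts6 was above all controls at 30000 fibers and Adamts10 below all of them. The changes of Adamts6 were 0.65 ± 0.16 (SE, adjusted p 0.0036) at 12000 and 0.78 ± 0.19 (SE, adjusted p 0.00119) at 30000 fibers. Log2 fold changes of Adamts10 were -0.09 ± 0.11 (SE, adjusted p 0.581) at 12000 and -0.95 ± 0.14 (SE, adjusted p 6.38e-06) at 30000 fibers. Both representative transcripts are annotated as targets of nonsense-mediated decay, and the sums of all listed transcripts gave 0.72 for Adamts6 and -0.75 for Adamts10 at 30000 fibers.

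Adamts13 (chr2:26973416-26998580, plus strand, 24 exons), the protease of von Willebrand factor, was near 0 outside the 30000-fiber group. It stood at 0, 0.292, 0.13 and 0.202 CPM in the controls, 0.179, 0.133, 0.558 and 0.268 at 12000 fibers and 5.09, 3.53, 6.77 and 3.34 at 30000 fibers. These correspond to 0 to 3 counts in the controls, 1 to 4 at 12000 and 10 to 23 at 30000 fibers, so the level at 30000 fibers is separate from the others while the size of the ratio rests on single counts. The fitted log2 fold change was 4.70 ± 0.48 (SE, adjusted p 5.03e-08) at 30000 and 0.67 ± 0.73 (SE, adjusted p 0.512) at 12000 fibers. In the fit without the 30000-fiber libraries Adamts13 did not pass the filter on low counts. It was thus tested only through the group where it is high, and its adjusted p has to be read with that limit. Endothelial markers (3 of 6 analysed here) summed to 3.9 to 5.35 CPM in all libraries.

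Of the 4 ADAMTS proteases of aggrecan and versican that were tested, Adamts4 and Adamts9 rose at both doses, and Adamts1 and Adamts5 did not pass. Adamts4 stood at 3.24, 4.77, 9.38 and 7.39 CPM in the controls, 10.1, 10.7, 13.5 and 11.4 at 12000 fibers and 9.4, 12.3, 8.54 and 12.4 at 30000 fibers. Adamts9 stood at 7.41, 10.9, 11.9 and 7.59 CPM in the controls, 15.6, 16.9, 13.2 and 15.5 at 12000 fibers and 11.4, 14.5, 11.8 and 17.4 at 30000 fibers. For both genes the 12000-fiber libraries lay above all controls and the 30000-fiber libraries overlapped them. Adamts4 changed by 0.89 ± 0.23 (SE, adjusted p 0.00528) at 12000 and 0.79 ± 0.27 (SE, adjusted p 0.0161) at 30000 fibers. Adamts9 changed by 0.71 ± 0.15 (SE, adjusted p 0.00127) at 12000 and 0.55 ± 0.18 (SE, adjusted p 0.0133) at 30000 fibers. The 30000-fiber calls were lost for Adamts4 without the fiber library of mouse 2 or 4 (adjusted p 0.0561 and 0.0586) and for Adamts9 without that of mouse 4 (0.0797). Adamts1, the most abundant ADAMTS member at 16.7 CPM per kb in the controls, had a log2 fold change of 0.25 ± 0.18 (SE, adjusted p 0.314) at 12000 fibers. With the mouse as a block the value was 0.28 (adjusted p 0.00607), and all 4 mice were higher at 12000 fibers than in their own control. Without the control of mouse 4 it was 0.44 (adjusted p 0.0282). Adamts5 had values of -0.21 ± 0.20 (SE, adjusted p 0.43) at 12000 and -0.12 ± 0.23 (SE, adjusted p 0.666) at 30000 fibers.

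All 3 TIMPs were higher at 30000 fibers, and Timp2 and Timp3 also at 12000. Timp2 (chr11:118301069-118355506, minus strand, 5 exons), which inhibits MMPs and also takes part in the activation of pro-MMP2 by MMP14, stood at 380.4, 497, 520.3 and 485 CPM in the controls, 716, 697, 662 and 666 at 12000 fibers and 980.2, 1139, 994 and 876 at 30000 fibers. The groups rose stepwise without overlap, and Timp2 changed by 0.54 ± 0.09 (SE, adjusted p 9.19e-05) at 12000 and 1.08 ± 0.09 (SE, adjusted p 3.71e-09) at 30000 fibers. Timp3, the TIMP that binds to matrix and also inhibits ADAM17 and aggrecanases, stood at 172, 227, 387 and 344 CPM in the controls, 414, 419, 486 and 508 at 12000 fibers and 422, 581, 520.5 and 509 at 30000 fibers. All fiber-treated libraries were above all controls, and both doses overlapped each other. The log2 fold changes of Timp3 were 0.69 ± 0.23 (SE, adjusted p 0.0367) at 12000 and 0.85 ± 0.23 (SE, adjusted p 0.00833) at 30000 fibers. The 12000-fiber call was lost without the control of mouse 2 (0.60, adjusted p 0.0912) and without each 12000-fiber library in turn (0.0533 to 0.0818), and 36.7% of the transcript overlaps exons of Syn3 on the other strand. Timp1 (chrX:20870221-20874735, plus strand, 6 exons), a soluble inhibitor of most secreted MMPs, stood at 20.3, 22.3, 22.3 and 17.6 CPM in the controls, 24.3, 19.9, 22.6 and 22.2 at 12000 fibers and 54.1, 79, 81.5 and 61.5 at 30000 fibers. The first 2 groups overlapped and the 30000-fiber libraries were all higher. Its log2 fold change was 0.12 ± 0.12 (SE, adjusted p 0.485) at 12000 fibers, and it rose by 1.75 ± 0.12 (SE, adjusted p 2.15e-10) at 30000. At 833 bases its transcript was the shortest of the members, and with the length trend removed its change at 30000 fibers was 0.69 (adjusted p 6.41e-05).

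**Figure D5:**
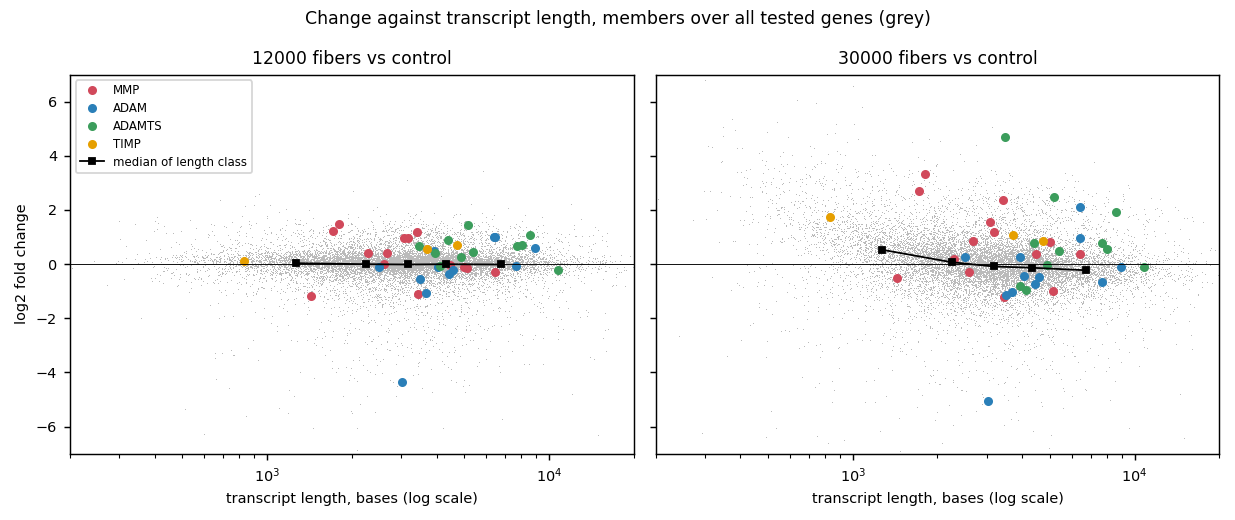
Log2 fold change against transcript length (log axis) for all tested genes (grey) and the members by family, with the medians of 5 length classes as squares. The class medians are flat at 12000 fibers and run from 0.53 to -0.23 at 30000 fibers, where Timp1 is the leftmost member.

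Between the doses, 10 members were higher and 9 lower at 30000 than at 12000 fibers, which is 47.5% of the 40 tested, beside 55.4% of all genes (28.3% higher and 27.1% lower). The same direction passed in all 3 comparisons for 7 rising members (Adam23, Adamts12, Adamts14, Mmp3, Mmp10, Mmp19 and Timp2) and for 2 falling ones (Adam10 and Adam17). The 3 comparisons share groups, so these are not separate observations. The share of all tested genes with each joint pattern given here was not counted, and no conclusion is drawn from these numbers of members. A further 8 members were higher at both doses with no difference that passed between them (Adam19, Adamts4, Adamts6, Adamts7, Adamts9, Mmp2, Mmp9 and Timp3), and 3 were lower in that way (Adam28, Adam8 and Mmp28). With all listed transcripts summed, Mmp9 and Mmp2 did pass between the doses: Mmp9 had 0.66 (adjusted p 0.0365), beside 0.24 ± 0.24 (SE, adjusted p 0.414) with the representative transcript, and Mmp2 had 0.69 (adjusted p 0.0417). For 5 members the fall passed at 30000 fibers against both other groups and not at 12000 against control: Adam9, Adam12, Adamts10, Mmp14 and Mmp15. Adamts13, Mmp16 and Timp1 rose in that pattern. Mmp2 had 0.61 ± 0.29 (SE, adjusted p 0.102) between the doses, with no overlap of their libraries.

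In the controls, the fibroblast marker sum without Fn1 was lowest in mouse 1 and highest in mouse 3. The same libraries were lowest and highest for 13 of the 16 members that were higher at both doses, Adamts7, Mmp3 and Mmp9 being the exceptions, and for 3 of the other 24 (Adam12, Adam22 and Adamts10). The share of all tested genes with these libraries at their ends was not counted, and the controls of mice 1 and 3 were the least alike pair of controls. No conclusion is therefore drawn from these counts. Within the fiber groups the lowest and highest libraries of the marker sum were shared by 1 of the 16 members (Adam23) at 12000 fibers and by 4 (Adam15, Adam23, Mmp2 and Timp2) at 30000. The marker sum without Fn1 was 2.06 times the control level at 12000 and 3.51 times at 30000 fibers. Over the same groups Mmp2 was 1.93 and 2.93 times, Mmp19 2.27 and 5.17 times, Adamts14 2.69 and 5.52 times and Mmp3 2.76 and 9.96 times the control level. The markers tested, Fn1 left out, differed widely among themselves. Their log2 fold changes at 30000 fibers ran from 0.68 (Col6a1) to 3.33 (Twist1). Those of the 16 members higher at both doses ran from 0.25 (Adam15) to 3.32 (Mmp3). Adam12 and Adamts10, whose controls had the same lowest and highest libraries as the markers, were lower at 30000 fibers, as was Mmp14. Whether carried-over CCL206 fibroblasts contributed to the rise of any member, and how much, was not tested. Of 11 macrophage markers, 5 were analysed here, and they summed to 196 to 269 CPM in the controls, 206 to 319 at 12000 and 344 to 522 at 30000 fibers. Lyz2, which alveolar type 2 cells also express, was 108 CPM of that on average in the controls and 345 CPM at 30000 fibers.

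Genes that work with these proteases were counted in the same fit, beside the shares of all genes given above. Of 14 tested genes of the proprotein convertases and the plasminogen system, which activate proenzymes, 2 were higher and 6 lower at 12000 fibers, and 2 and 10 at 30000, with median log2 fold changes of -0.14 and -0.66. Pcsk6, a convertase of the furin family, fell by 1.20 ± 0.08 (SE, adjusted p 7.35e-09) on the log2 scale at 12000 fibers, and Pcsk5 fell by 2.87 ± 0.33 (adjusted p 1.48e-06). At the same dose Plaur, the receptor of urokinase, rose by 0.60 ± 0.07 (adjusted p 1.48e-06), and Serpinb2, an inhibitor of plasminogen activators, fell by 1.26 ± 0.14 (adjusted p 9.13e-07). At 30000 fibers Serpinb2 had -0.15 ± 0.15 against control (adjusted p 0.378), and it was higher there than at 12000 fibers (1.11 ± 0.16, adjusted p 8.84e-06). Among 17 regulators and cofactors of these enzymes, 3 were higher and 7 lower at 12000 and 5 and 11 at 30000 fibers (medians -0.12 and -0.71). At 12000 fibers Cav1 (caveolin-1) fell by 1.42 ± 0.08 (adjusted p 7.19e-10), and Bsg (basigin, an inducer of MMPs) fell by 0.72 ± 0.11 (adjusted p 5.61e-05). Tspan33, a tetraspanin partner of ADAM10, changed from a mean of 7.26 to 0.487 CPM, and Papln (papilin, an ADAMTS-like matrix protein) from 7.64 to 0.698 CPM, both at 12000 fibers.

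Of 4 ADAMTS-like genes, whose products lack the protease domain, none was higher and 2 were lower at 12000 fibers, and 2 were higher and 1 lower at 30000 (medians -0.36 and -0.10). Adamtsl4, a partner of fibrillin microfibrils, went from 155 CPM in the controls to 94.2 at 12000 fibers (log2 fold change -0.72 ± 0.09, adjusted p 3.98e-06). Of 19 tested membrane substrates of ADAM10 and ADAM17, 2 were higher and 7 lower at 12000 fibers, and 5 and 9 at 30000 (medians 0.00 and -0.03). Notch1 fell by 1.16 ± 0.08 (adjusted p 9.12e-09) and Met, the receptor of hepatocyte growth factor, by 1.06 ± 0.07 (adjusted p 6.54e-09) at 12000 fibers. Among 15 matrix substrates and AP-1 subunits, 8 were higher and 3 lower at 12000 fibers, and 6 and 6 at 30000 (medians 0.53 and 0.04). These values pool 2 kinds of genes: the 6 AP-1 subunits among them gave 1 higher and 2 lower at 12000 fibers, and 1 and 4 at 30000. The basement membrane collagen genes Col4a1 and Col4a2 rose by 0.98 ± 0.16 (adjusted p 0.000312) and 0.95 ± 0.15 (adjusted p 0.000214) at 12000 fibers, and had values of 0.04 ± 0.16 and 0.01 ± 0.15 at 30000 (adjusted p 0.854 and 0.963). Dcn (decorin), like Fn1 and Fbn1 of this list also one of the fibroblast markers, rose by 1.49 ± 0.21 (adjusted p 0.00026) and 3.30 ± 0.21 (adjusted p 1.42e-07).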

How the data were processed

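RNA was sequenced in 24 libraries, and the 12 of the epithelial fraction were analysed here. The deposited values were raw counts per Ensembl transcript, not normalized, with a different total in each library. The authors' tools, per the submitters' processing notes, included HISAT2 2.1.0, cutadapt 1.12, FastQC and bcl2fastq, with the build mm10. Counting program, annotation release, strand setting and barcode use were not given in the sources used here. PCR copies may be among the counts. The fibroblast columns hold 107814 entries for 71081 transcript identifiers, 36733 of them below the last one, and entry by entry they were unrelated to the epithelial columns (Spearman rho 0.0467), so they were not used. Per gene, the transcript of largest epithelial mean was used. Isoforms share exons, and how reads were divided among them is not known here. All 12 libraries entered one fit of edgeR 4.0.16 (R 4.3.3) by group, with filterByExpr, TMM scaling and the quasi-likelihood F test (9 residual degrees of freedom), adjusted by Benjamini-Hochberg over 13759 genes. Standard errors come from the F statistic and the log2 fold change. CPM used TMM-scaled totals of 2552480 to 11152925 counts, and coordinates and lengths came from GENCODE M21 (GRCm38, the assembly of mm10). Values in every library are given for the 30 members with a mean of at least 5 CPM in a group that passed against control, and others by counts and ranges or, where named, with their values. Of each list of related genes, the 4 of smallest p at 12000 fibers could be named. The members, lists and tests were chosen with earlier results of these data known. Libraries with the same mouse number come from the same animal, so the numbers pair the libraries. Deviations from the group means of libraries of the same mouse had correlations of -0.019 to 0.156. Alternatives were DESeq2 1.42.0, RLE factors, no filter, the mouse as a block, summed transcripts, a fit of the 2 groups compared, offsets that remove the length trend, and leaving out each library.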

Additional observations from a re-analysis of the deposited data

Results flagged for a closer look

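In 5 of 120 groups of 4 libraries tested, 1 library stood far from the other 3, which is about what chance gives (1 in 20 groups). At 12000 fibers, Adam1a was at 1.74 CPM in mouse 4 and at 1.25 to 1.33 CPM in the others, and Adamts7 was at 14.3 CPM in mouse 2 and at 17.3 to 17.4 CPM in the others. Mmp15 was at 142 CPM in mouse 2 at 30000 fibers, below the other 3 at 181 to 188 CPM, and all 4 were below the controls. Mmp9 had 2 such libraries: the control of mouse 3, at 7.17 CPM against 3.31 to 3.36 CPM in the other controls, and the 30000-fiber library of mouse 4, at 7.35 CPM against 10.2 to 10.6 CPM. The control of mouse 3 also had the highest fibroblast marker sum of the controls.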

How the results depend on the processing

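The counts of members higher or lower in the 3 comparisons stayed within 1.5 times the reported ones under every alternative run. Leaving out one library gave 14 to 19 higher and 6 to 6 lower members at 12000 fibers, 16 to 20 higher and 10 to 12 lower at 30000, and 10 to 11 higher and 7 to 9 lower between the doses. One direction turned: with all listed transcripts summed, Mmp11 was higher at 30000 than at 12000 fibers (0.29, adjusted p 0.0289; -0.21 with the representative transcript). The cause was not tested. In the fit without the 30000-fiber libraries, 15 members were higher and 6 lower at 12000 fibers. Adam19, Mmp2 and Timp3 were no longer among them (adjusted p 0.0553, 0.0635 and 0.0705), and Adam22 was added to the higher ones (0.61, adjusted p 0.0297). With the mouse as a block, Adamts1 and Mmp13 joined the higher members at 12000 fibers, both also passed between the doses (-0.29, adjusted p 0.00598, and 0.47, adjusted p 0.00911), and no other call of a member changed. DESeq2 added Adam22 (-0.70, adjusted p 0.0412), Mmp13 (0.46, 0.0438) and Mmp23 (0.67, 0.0452) between the doses and changed no call against control. A fit of the fiber groups alone added Adam22 (-0.71, 0.0212), Adam28, Mmp2 (0.61, 7.4e-07) and Mmp13 (0.47, 0.00677) there. Summed transcripts gave 23 higher and 12 lower members at 30000 fibers, and between the doses they added Mmp2 (0.69, 0.0417), Mmp9 (0.66, 0.0365) and Mmp13 (0.60, 0.0205). With the length trend removed, 39 of 40 members kept their call in each comparison, Adam22 (0.63, adjusted p 0.0489, at 12000 fibers), Mmp23 at 30000 fibers and Adam15 between the doses being the exceptions. Between the doses, the fall of Adamts3 was lost without the 12000-fiber library of mouse 4 (-1.06, adjusted p 0.0737) or the 30000-fiber library of mouse 1, 2 or 4 (0.0956, 0.0525 and 0.0787), and the rise of Mmp16 without the 30000-fiber library of mouse 2 (0.75, 0.0775). The 30000-fiber libraries had the lowest totals, and Adam1a had 1 to 6 counts per library there. Adamts13 had 0 to 3 counts per library in the controls and 1 to 4 at 12000 fibers.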
